A study of Saccharomyces cerevisiae with 6 samples.

Results

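The genes described here are the 42 that encode the initiation, elongation and termination factors of cytoplasmic translation in budding yeast, together with the eIF4E-binding proteins and the Gcn1-Gcn20 pair. They were chosen by systematic identifier from the 5913 genes listed in the deposited table, and all 42 were found there and passed the filter on low values. RNA-seq was performed on *not4Δ* cells of the BY4741 background that carried a plasmid expressing either wild-type Not4 (Not4WT) or a mutant (Not4RRM), with 3 cultures of each and 6 samples in all. Not4 is the RING ubiquitin ligase of the Ccr4-Not complex, and Not4RRM carries 3 substitutions to alanine, in its RNA recognition motif and in its C3H1 zinc finger domain. In both groups the chromosomal *NOT4* gene was deleted, and FLAG-tagged Not4 was made from the *ADH1* promoter of a plasmid kept by its *URA3* marker in medium without uracil. The comparison asked which transcripts depend on the RNA recognition motif and C3H1 domain of Not4.

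Translation begins when eIF4E binds the mRNA cap and eIF4G joins it to the helicase eIF4A, while eIF1, eIF1A, eIF2 with the initiator tRNA, eIF3 and eIF5 settle the small ribosomal subunit on the start codon. eEF1A then brings each aminoacyl-tRNA, eEF2 moves the ribosome by 1 codon, and yeast in addition needs eEF3 for every round. eRF1 and eRF3 release the finished chain, and Rli1 splits the ribosome. The Gcn1-Gcn20 complex binds ribosomes and carries the signal of uncharged tRNA to the kinase Gcn2. Several of these factors are among the most abundant proteins of a growing yeast cell, and some are encoded by gene pairs kept almost identical in sequence.

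The values are read counts that the authors scaled to the lowest coverage, so that the totals lay between 14881818 and 14881884, and the depth before scaling is unknown. Each value given below is the deposited value divided by a factor for the composition of its sample, which lay between 0.929 and 1.08, and is called a scaled read count. *NOT4*, listed as *MOT2* (YER068W), had a scaled read count of 11876, 12047 and 8883 in Not4WT and of 34335, 41531 and 43399 in Not4RRM, a log2 fold change of 1.87 (SE 0.23, limma adjusted p = 0.0715). The groups therefore differed in the *NOT4* transcript itself, and its part in the values below was not tested. As deposited, the a-cell genes *STE2* and *MFA1* were at no less than 5222 and 611, against at most 120 for *STE3* and 14 for *MF(ALPHA)1* of the other mating type, and *LEU2* and *MET15*, which BY4741 lacks, were at most 19 and 26. *URA3* ranged from 1047 to 1270 in Not4WT and from 3990 to 9251 in Not4RRM. The Pearson r of log2 values between replicates was 0.968 to 0.984 in Not4WT and 0.947 to 0.993 in Not4RRM. Over all genes, the deviation of each sample from the mean of all 6 samples was set against coding length. The Spearman rho was -0.455 in Not4RRM replicate 1 and 0.388 in Not4WT replicate 2, against -0.031 to 0.221 in the others. The counts over the members, and the values of most genes named, are also given without Not4RRM replicate 1, whose removal raised the count of all genes past the threshold from 0 to 357.

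Among the members are 3 pairs of genes that encode the same protein, and their sequences are shown because they set how far the values of each gene can be told apart. *TIF1* and *TIF2* (eIF4A, 395 residues) differ at 6 of 1188 coding positions, *TEF1* and *TEF2* (eEF1A, 458 residues) at 2 of 1377, and *EFT1* and *EFT2* (eEF2, 842 residues) at 4 of 2529. The lines below give the stretch of *TEF1* and *TEF2* that holds both differences (coding positions 752 to 844), the stretch around 1 difference of *EFT1* and *EFT2* (2130 to 2160), and stretches of *TIF1* and *TIF2* near the start (215 to 238) and at the end (1159 to 1188). They run 5′ to 3′ on the coding strand of the R64 assembly, with the bases that differ in capitals.
*TEF1*, chrXVI:701345-701437, plus strand: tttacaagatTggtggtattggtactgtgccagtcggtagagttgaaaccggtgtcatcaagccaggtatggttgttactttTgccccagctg
*TEF2*, chrII:478422-478514, plus strand: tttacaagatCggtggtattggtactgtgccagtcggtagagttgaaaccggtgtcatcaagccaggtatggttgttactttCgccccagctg
*EFT1*, chrXV:577227-577257, plus strand: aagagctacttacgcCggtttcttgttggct
*EFT2*, chrIV:1245359-1245389, plus strand: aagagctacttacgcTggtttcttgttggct
*TIF1*, chrXI:555201-555224, plus strand: agaccggtacCttTtccattgctg
*TIF2*, chrX:154454-154477, minus strand: agaccggtacTttCtccattgctg
*TIF1*, chrXI:556145-556174, plus strand: ccatccgacatCgctacTttgttgaactaa
*TIF2*, chrX:153504-153533, minus strand: ccatccgacatTgctacCttgttgaactaa

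From *TEF1* to *TEF2* the changes are T762C and T834C, counted from 1 at the first base of the start codon. A window of 100 coding bases is identical between the genes at 86.5% of positions for *TEF1* and *TEF2*, at 83.5% for *EFT1* and *EFT2* and at 74.1% for *TIF1* and *TIF2*. How reads from such windows were assigned is not given in the sources used here, so the separate values of these genes are uncertain and their sums are given below. *HYP2* (eIF5A) and its paralog *ANB1* differ at 43 of 474 positions, with no identical window of 100 bases.

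None of the 42 transcripts passed the threshold (1.5-fold or more, with an adjusted p under 0.05). In the same limma fit 0% of all 5805 tested genes passed it, and the lowest adjusted p was 0.217 among the members and 0.0715 over all genes. The log2 fold change of the members (Not4RRM minus Not4WT) ranged from -0.72 for *GCN1* to 1.05 for *TIF11*, with 24 of 42 negative. Their median was -0.05 (quartiles -0.24 and 0.10), against 0.05 for all tested genes, of which 45.1% were negative. At an unadjusted p under 0.05 the fit gave 1 member, *GCN1*, which was lower in Not4RRM, while 15.9% of all tested genes reached this p and 6.06% did so with a lower value. All 3 Not4RRM values lay below all 3 Not4WT values for 8 members (*GCN1*, *DED1*, *EFT2*, *EFT1*, *YEF3*, *CAM1*, *TIF4632* and *GCD11*), against 12.2% of all tested genes, and above them for 1 member (*TIF35*), against 12.4%. In these counts and those below, the genes of an identical-protein pair are counted singly, though their separate values are uncertain.

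**Figure D1:**
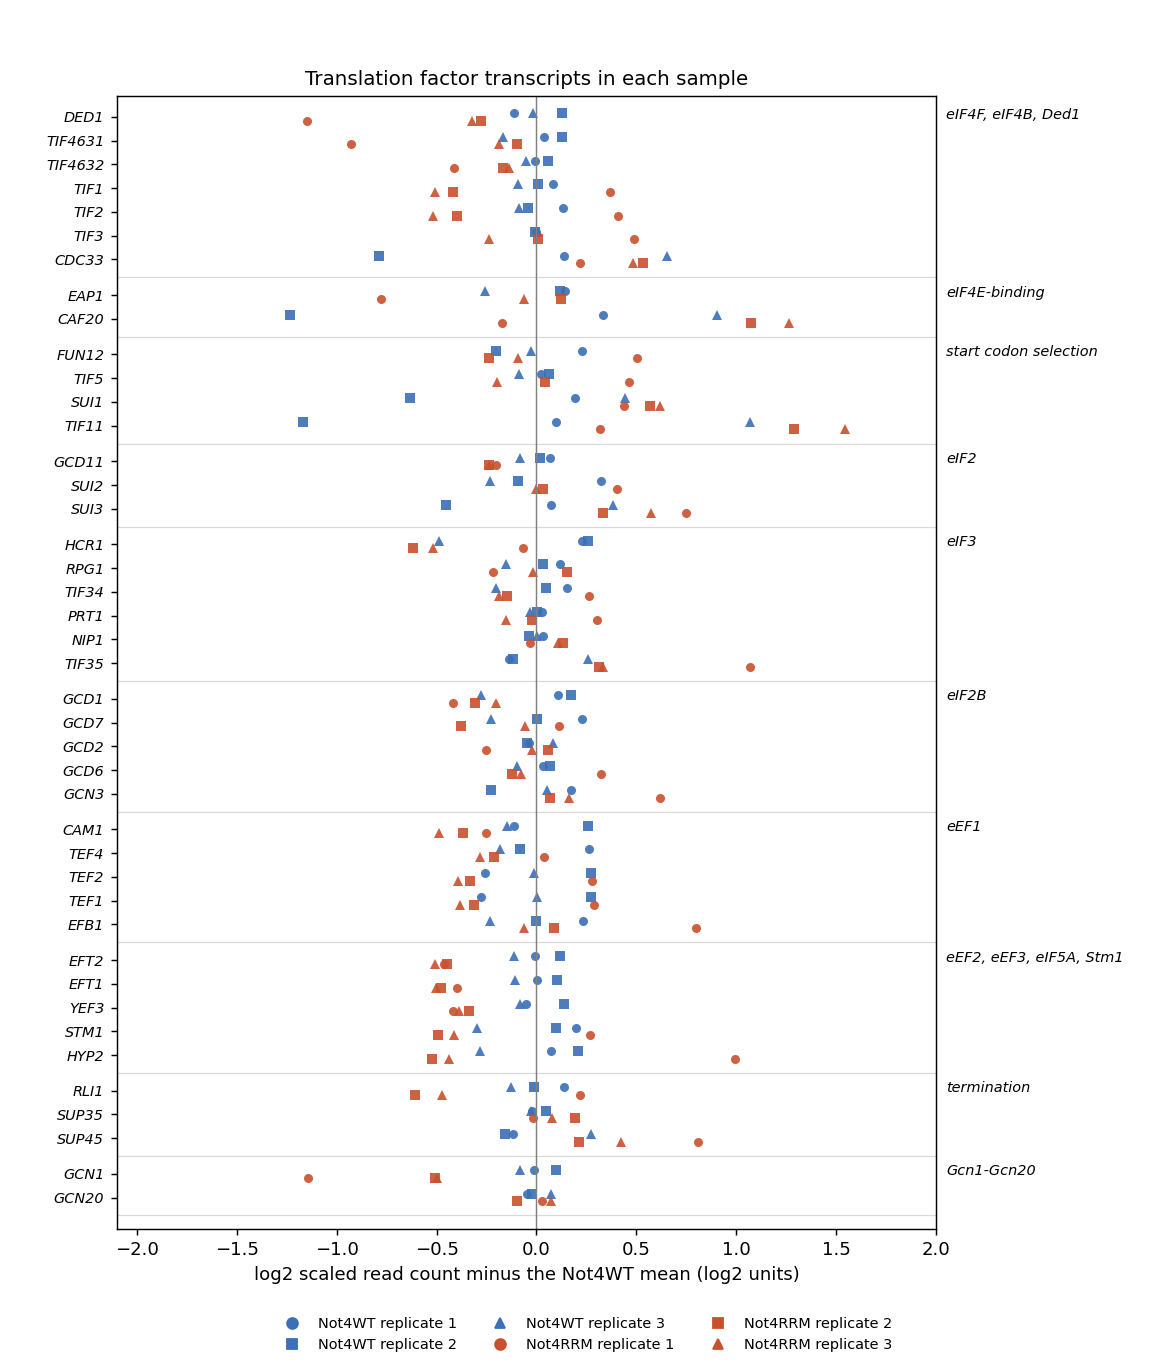
Log2 scaled read count of each of the 42 genes in each sample, minus the mean of the 3 Not4WT samples, with genes grouped by the factor they belong to. Blue points are Not4WT and red points Not4RRM, and the shape gives the replicate. The red points of *GCN1*, *DED1*, *EFT1*, *EFT2* and *YEF3* lie to the left of all blue points, and Not4RRM replicate 1 (red circles) lies far from the other red points for many genes.

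Not4RRM replicate 1 gave the highest value of all samples for 19 of the 42 members and the lowest for 9, against 30.7% and 25.3% of all tested genes. Not4WT replicate 2 gave the highest value for 10 and the lowest for 8, against 14.5% and 27.8%. Without Not4RRM replicate 1, 27 members had a negative log2 fold change and their median was -0.15, against 0.02 for all genes. The limma fit of the remaining samples gave 9 members with an unadjusted p under 0.05, all of them lower in Not4RRM. Of all genes 29.2% reached this p, and 803 of 5805 did so with a lower value. The 9 members are named next. They were *GCN1*, *RLI1*, *TIF2*, *TIF1*, *HYP2*, *EFT1*, *EFT2*, *YEF3* and *DED1*. As sums in the same setting, *TIF1* with *TIF2* had an unadjusted limma p of 0.020, and *EFT1* with *EFT2* of 0.054. None of the members passed the adjusted threshold, which 6.15% of all genes passed, and the lowest adjusted p among the members was 0.054, for *GCN1*. The groups did not overlap for 17 members with lower values and 6 with higher values in Not4RRM, against 25.2% and 27.3% of all genes. The first steps of the study's methods were an unequal-variance test, here on the deposited values, an unadjusted p under 0.05 and a change of 1.5-fold or more. With these, 3 members passed, *GCN1*, *EFT1* and *EFT2*, all lower, against 6% of all 5913 genes. The study's methods then apply a Benjamini-Hochberg correction to the resulting list, a step that was not repeated here. Over that list alone the step cannot remove a gene, because every p in it is already under 0.05.

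*GCN1* (YGL195W, chromosome VII, 131525 to 139543), the ribosome-bound activator of Gcn2 and by far the longest of these genes with 8019 coding bases, had the most negative log2 fold change. Its scaled read count was 4495, 4852 and 4279 in Not4WT and 2052, 3187 and 3214 in Not4RRM. Every Not4RRM value was below every Not4WT value, and replicate 1 was the lowest of all. The means were 4542 ± 289.6 and 2818 ± 663.6 (SD, n = 3 each), a level 1.64-fold lower in Not4RRM (log2 fold change -0.72, SE 0.22, limma adjusted p = 0.217, exact permutation p = 0.1, two-sided). The log2 fold change was -0.50 without replicate 1 (limma adjusted p = 0.054), and -0.51 after the trend with coding length was removed from every sample. The unadjusted limma p of *GCN1* was under 0.05 in every fit that left out 1 sample, the highest of these being 0.044. How many of all tested genes did so was not counted. Its partner *GCN20* (YFR009W), an ABC protein, stood at 513, 521 and 558 in Not4WT and 540, 495 and 558 in Not4RRM. These values overlapped, with a log2 fold change of 0.00 (SE 0.15), whereas as deposited they were 534, 565 and 563 against 525, 482 and 518, with no overlap and a log2 fold change of -0.12.

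The values of eEF2 and eEF3, the factors that move the ribosome along the mRNA, were lower in all 3 Not4RRM samples than in any Not4WT sample, though none passed the adjusted threshold. *EFT2* (YDR385W, chromosome IV, 1243230 to 1245758) had scaled read counts of 40221, 43840 and 37344 in Not4WT and 29312, 29609 and 28373 in Not4RRM. *EFT1* (YOR133W, chromosome XV, 575098 to 577626) had 45300, 48699 and 42086 against 34392, 32544 and 32005. The Not4RRM values of both genes were close to each other, with none reaching the Not4WT range. Summed over the pair, the transcripts of eEF2 were at 85832 ± 6564 in Not4WT and 62077 ± 1669 in Not4RRM (SD, n = 3 each, log2 fold change -0.46, SE 0.23, limma adjusted p = 0.357, exact permutation p = 0.1, two-sided). An exact p of 0.1 is the lowest that 3 samples against 3 can give. Without Not4RRM replicate 1 the log2 fold change of the sum was -0.48, and with totals as deposited -0.59. *YEF3* (YLR249W), which encodes the fungal factor eEF3, had 21110, 24057 and 20679 against 16379, 17337 and 16751. These groups did not overlap either, with a log2 fold change of -0.38 (SE 0.20, limma adjusted p = 0.370) that was -0.36 without Not4RRM replicate 1. After the trend with coding length was removed, the log2 fold changes of *EFT1*, *EFT2* and *YEF3* were smaller, at -0.35, -0.37 and -0.26. Of the 5 genes of eEF2, eEF3, eIF5A and Stm1, 1 then lay below the Not4WT range in all Not4RRM samples (12.4% of all genes). Before the removal 3 did so (12.2% of all genes).

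*HYP2* (YEL034W), which encodes eIF5A, the factor that helps the ribosome join prolines and carries the modified residue hypusine, turned on a single sample. Its scaled read count was 1808, 1986 and 1411 in Not4WT and 3424, 1194 and 1268 in Not4RRM, so that Not4RRM held both the highest and the lowest values. The log2 fold change was 0.01 (SE 0.40) with all samples and -0.48 without replicate 1 (limma adjusted p = 0.125). *STM1* (YLR150W), whose protein occupies idle ribosomes, had 78673, 73474 and 55878 against 82488, 48735 and 51570, again with replicate 1 above the rest. Its log2 fold change was -0.21 (SE 0.30) and -0.45 without that sample. Without it, the 5 genes of eEF2, eEF3, eIF5A and Stm1 all lay below the Not4WT range and 4 of them had an unadjusted limma p under 0.05, where 25.2% and 29.2% of all genes did so. The 29.2% holds both directions, and 803 of 5805 genes reached this p with a lower value.

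Of the 5 eEF1 genes, which deliver aminoacyl-tRNA and recharge eEF1A with GTP, 4 had negative log2 fold changes. The sum of *TEF1* (YPR080W) and *TEF2* (YBR118W), the eEF1A genes, was 394421, 573265 and 472614 in Not4WT and 577573, 379346 and 362104 in Not4RRM. Replicate 1 lay just above the highest Not4WT sample while the other Not4RRM samples lay below all of Not4WT, and the sums did not differ beyond the spread (log2 fold change -0.14, SE 0.34, limma adjusted p = 0.855, and -0.36 without replicate 1). Taken singly, *TEF1* had a log2 fold change of -0.13 (SE 0.32), which was 0.00 without Not4WT replicate 2, and *TEF2* of -0.15 (SE 0.32). *CAM1* (YPL048W, chromosome XVI, 464401 to 465648), which encodes a gamma subunit of eEF1B, had 39273, 50697 and 38292 in Not4WT and 35537, 32832 and 30238 in Not4RRM. Its groups did not overlap, with a log2 fold change of -0.37 (SE 0.23, limma adjusted p = 0.443) that was -0.43 without replicate 1. *TEF4* (YKL081W), the other gamma subunit, had a log2 fold change of -0.15 (SE 0.22), and of -0.25 without that sample.

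*EFB1* (YAL003W), the eEF1B exchange subunit, had 7437, 6316 and 5368 in Not4WT against 11003, 6704 and 6054, with only Not4RRM replicate 1 outside the Not4WT range. Its log2 fold change was 0.27 (SE 0.27), and 0.01 without that sample. *EFB1* and *TEF4* are the only members with an intron, of 366 bp on chromosome I (142254 to 142619) and of 326 bp on chromosome XI (283096 to 283421), and each intron holds a small nucleolar RNA gene, *SNR18* and *SNR38*. Whether reads from these introns were counted is not given in the sources used here.

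**Figure D2:**
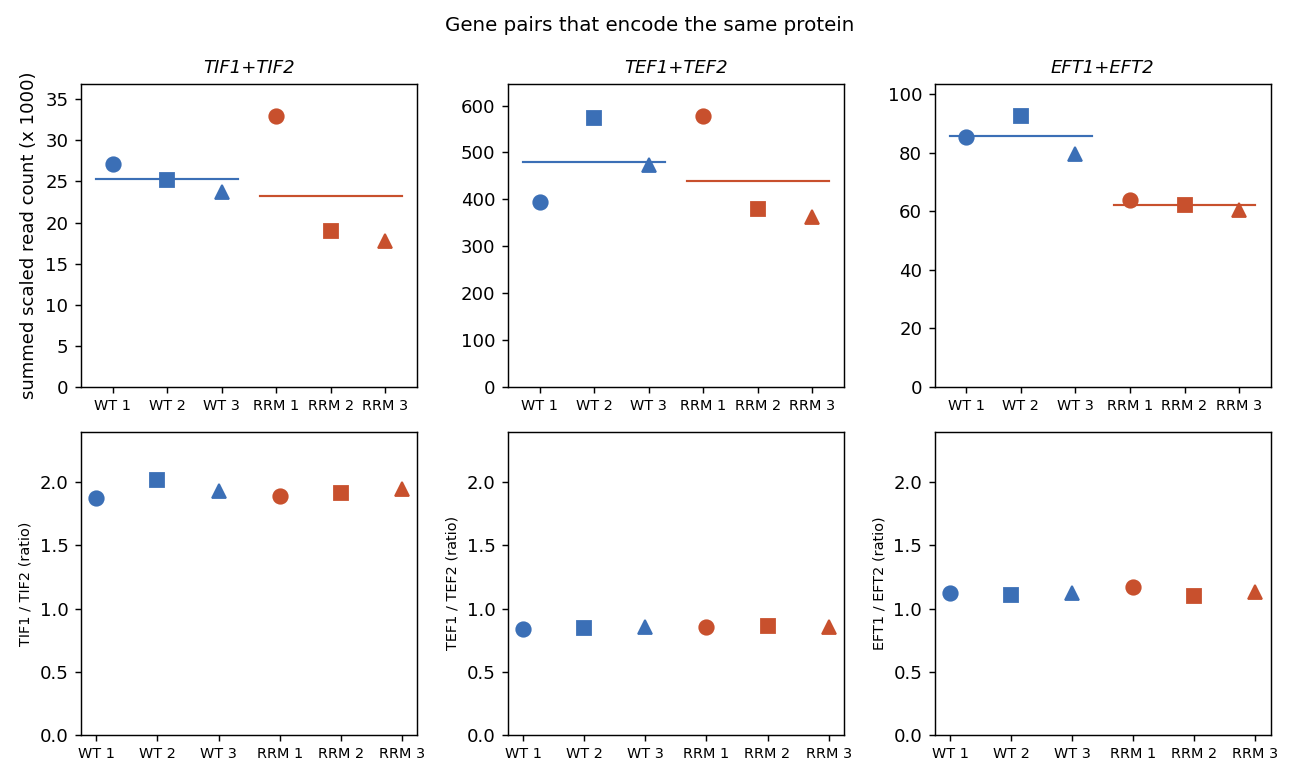
Summed scaled read count (in units of 1000, top) and ratio of the first to the second gene (bottom) for the 3 pairs of genes that encode the same protein, in each Not4WT (blue) and Not4RRM (red) sample, with lines at the group means. The eEF2 sums of Not4RRM (60367 to 63703) lie below those of Not4WT (79430 to 92546), while the ratios stay within narrow ranges in all samples.

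Within each pair the ratio of the genes hardly moved. *EFT1* to *EFT2* was 1.10 to 1.17 over the 6 samples, *TEF1* to *TEF2* was 0.837 to 0.860, and *TIF1* to *TIF2* was 1.88 to 2.02. For *TIF1* and *TIF2* the more abundant gene was thus the same in every sample, but the share of reads that could be placed on 1 gene of a pair is unknown. The eIF4A sum of *TIF1* (YKR059W) and *TIF2* (YJL138C) was 27138, 25156 and 23758 in Not4WT and 32966, 19027 and 17734 in Not4RRM. Here too replicate 1 was above and the other Not4RRM samples below the whole Not4WT range, and the log2 fold change was -0.18 (SE 0.28, limma adjusted p = 0.762). Singly, *TIF1* had -0.19 (SE 0.27) and *TIF2* -0.17 (SE 0.27), and both had -0.46 without replicate 1, with limma adjusted p values of 0.093 and 0.089.

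Among the other factors that act at the cap, *DED1* (YOR204W, chromosome XV, 722911 to 724725), a DEAD-box helicase needed for scanning, had the most negative log2 fold change. Its scaled read count was 5696, 6734 and 6075 in Not4WT and 2774, 5071 and 4912 in Not4RRM. The groups did not overlap, and Not4RRM replicate 1 was far below all other samples. The log2 fold change was -0.58 (SE 0.27, limma adjusted p = 0.332) with all samples and -0.30 without replicate 1 (limma adjusted p = 0.171). The eIF4G genes had values in the same direction, with a log2 fold change of -0.40 for *TIF4631* (YGR162W, SE 0.25) and -0.24 for *TIF4632* (YGL049C, SE 0.16), and of -0.14 and -0.15 without that sample. For *TIF4631* replicate 1 alone, at 962, was far below the Not4WT range of 1632 to 2002, while the others were at 1711 and 1609. *TIF4632* was the least abundant member, at 253 ± 9.66 in Not4WT and 215 ± 22 in Not4RRM (SD, n = 3 each). *TIF3* (YPR163C), the eIF4B gene that assists eIF4A, lay between 1129 and 1143 in Not4WT and between 962 and 1593 in Not4RRM.

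The genes of the cap-binding protein and of its repressor Caf20 were uneven among the Not4WT samples. *CDC33* (YOL139C), which encodes eIF4E, had 2135, 1124 and 3058 in Not4WT and 2258, 2816 and 2719 in Not4RRM. *CAF20* (YOR276W, chromosome XV, 841333 to 841818), an eIF4E-binding repressor, had 873, 293 and 1294 against 613, 1459 and 1665. Not4WT replicate 2 was the lowest sample for both genes, by a wide margin for *CAF20*, and the groups overlapped. The log2 fold change was 0.41 for *CDC33* (SE 0.35, and 0.51 without Not4RRM replicate 1) and 0.72 for *CAF20* (SE 0.58, limma adjusted p = 0.544). For *CAF20* it lay anywhere from 0.10 to 1.17 when 1 sample was left out. *EAP1* (YKL204W), the other eIF4E-binding protein, had a log2 fold change of -0.24 (SE 0.27), and Not4RRM replicate 1, at 1386, was its only sample outside a range of 1988 to 2630. Without that sample the value turned to 0.03.

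The 4 genes of start codon selection had positive log2 fold changes, of which those of *TIF5* and *FUN12* were negative with totals as deposited, and the values of *TIF11* varied widely within the groups. *TIF11* (YMR260C, chromosome XIII, 789378 to 789839), which encodes eIF1A, had 3143, 1304 and 6155 in Not4WT and 3655, 7174 and 8568 in Not4RRM. Not4WT replicate 3 was above Not4RRM replicate 1, so the groups overlapped in spite of a 2.07-fold higher level in Not4RRM (log2 fold change 1.05, SE 0.56, limma adjusted p = 0.389). Leaving out 1 sample gave log2 fold changes of 0.47 to 1.55, and removal of the trend with coding length gave 0.72. *SUI1* (YNL244C), the eIF1 gene, had 7955, 4483 and 9463 against 9422, 10328 and 10693. Only the highest Not4WT sample and the lowest Not4RRM sample overlapped, and the log2 fold change was 0.54 (SE 0.29), and 0.59 without Not4RRM replicate 1. The genes of eIF5 and eIF5B, *TIF5* (YPR041W) and *FUN12* (YAL035W), had 0.10 (SE 0.21) and 0.06 (SE 0.24), and both were negative without Not4RRM replicate 1 (-0.08 and -0.17).

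The 3 subunits of eIF2, the GTPase that carries the initiator tRNA, had values of differing sign. *SUI3* (YPL237W, chromosome XVI, 100496 to 101353), the beta subunit, had 2361, 1639 and 2924 in Not4WT and 3766, 2831 and 3335 in Not4RRM. The highest Not4WT sample lay above the lowest Not4RRM sample, with a log2 fold change of 0.55 (SE 0.25, limma adjusted p = 0.330), and of 0.45 without Not4RRM replicate 1. *GCD11* (YER025W), the gamma subunit that binds GTP, had 3754, 3620 and 3380 against 3110, 3042 and 3035. These groups did not overlap, and the log2 fold change was -0.23 (SE 0.16, limma adjusted p = 0.492), and -0.24 without replicate 1. *SUI2* (YJR007W), the alpha subunit that Gcn2 phosphorylates, had a log2 fold change of 0.15 (SE 0.21), and of 0.02 without that sample.

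In eIF2B, the exchange factor of eIF2, 3 of 5 subunits had negative values (4 of 5 with totals as deposited). The groups overlapped for all 5 genes, though not for *GCD1* and *GCD2* with totals as deposited. The most negative was *GCD1* (YOR260W, chromosome XV, 813984 to 815720), at 4650, 4854 and 3552 in Not4WT and 3227, 3480 and 3742 in Not4RRM. Only Not4WT replicate 3 lay within the Not4RRM range, and the log2 fold change was -0.31 (SE 0.19, limma adjusted p = 0.446), and -0.26 without Not4RRM replicate 1. The most positive was *GCN3* (YKR026C), the alpha subunit, with 0.28 (SE 0.20), and 0.12 without that sample. *GCD7*, *GCD2* and *GCD6* had -0.11, -0.07 and 0.04, and -0.22, 0.02 and -0.10 without it.

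Of the 6 eIF3 genes, whose complex organises the small subunit for initiation, 4 had log2 fold changes from -0.03 to 0.07 (*RPG1*, *TIF34*, *PRT1* and *NIP1*), and from -0.17 to 0.12 without Not4RRM replicate 1. *NIP1* (YMR309C) lay between 789 and 827 in Not4WT and between 791 and 886 in Not4RRM. The other two had values of opposite sign. *TIF35* (YDR429C, chromosome IV, 1324477 to 1325301), the g subunit, had 1321, 1342 and 1739 in Not4WT and 3050, 1809 and 1833 in Not4RRM. The groups did not overlap on this scale but did so in the deposited values, and the log2 fold change of 0.57 (SE 0.25, limma adjusted p = 0.319) was 0.32 without replicate 1. *HCR1* (YLR192C), the j subunit, had 4247, 4332 and 2579 against 3458, 2355 and 2524, with a log2 fold change of -0.40 (SE 0.27), and of -0.57 without replicate 1.

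The termination genes had values of differing sign as well. *SUP45* (YBR143C, chromosome II, 530869 to 532182), which encodes eRF1, had 860, 837 and 1127 in Not4WT and 1635, 1080 and 1252 in Not4RRM. Not4WT replicate 3 lay just inside the Not4RRM range, and the log2 fold change was 0.48 (SE 0.22, limma adjusted p = 0.323), and 0.32 without Not4RRM replicate 1. *SUP35* (YDR172W), the eRF3 gene, kept between 2863 and 3013 in Not4WT and between 2883 and 3330 in Not4RRM. *RLI1* (YDR091C), the ABC protein that recycles ribosomes, had 1301, 1175 and 1085 against 1379, 777 and 854. Its log2 fold change of -0.29 (SE 0.24) became -0.54 without replicate 1, with a limma adjusted p of 0.057.

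**Figure D3:**
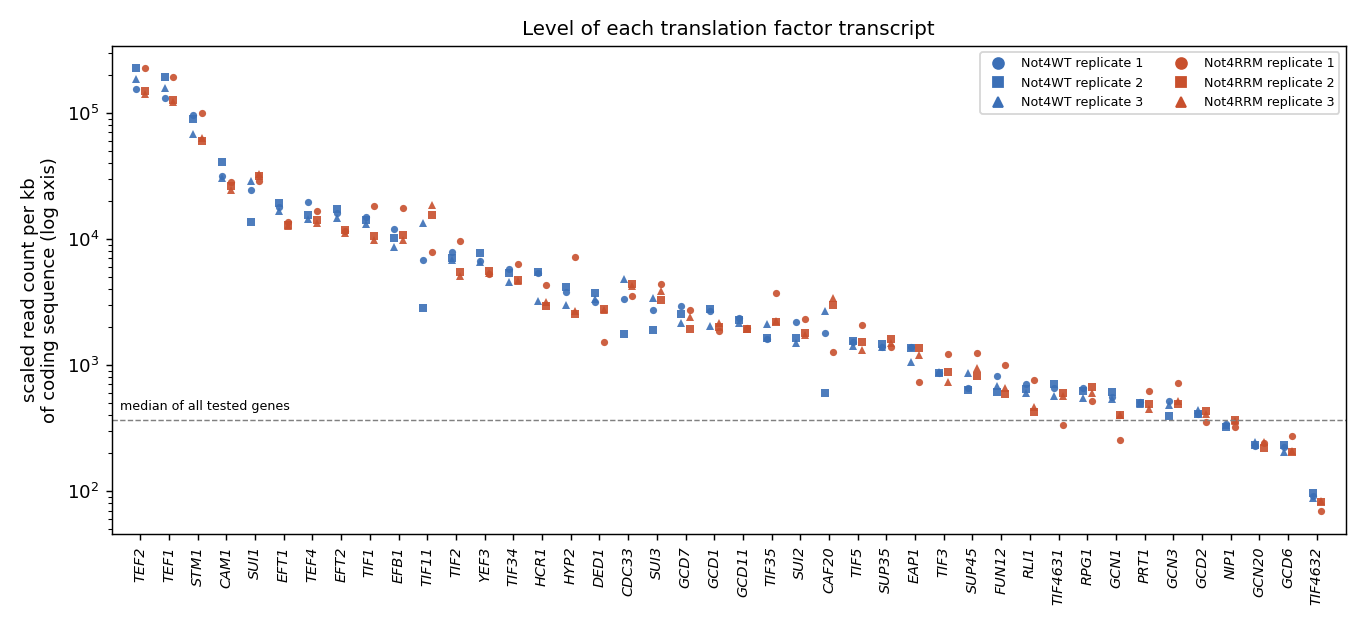
Scaled read count per kb of coding sequence (log axis) of each gene in the 6 samples, ordered by the Not4WT mean, with Not4WT in blue and Not4RRM in red. The dashed line is the median of all tested genes (363.5 per kb), above which the Not4WT means of all but 4 of the 42 genes lie.

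The members covered a wide span of levels. Per kb of coding sequence their median was 2384 in Not4WT, against 363.5 for the tested genes with a known length, and 16 of 42 were above the 90th percentile. The highest were *TEF2*, *TEF1* and *STM1* (188830, 159810 and 84357 per kb), and 4 were under the 50th percentile, *NIP1*, *GCN20*, *GCD6* and *TIF4632*, the last at the 13.4th. Together the members took 5.27%, 6.79% and 5.34% of all deposited values in Not4WT and 5.97%, 4.30% and 3.98% in Not4RRM. These shares overlapped between the groups (5.80% ± 0.856 against 4.75% ± 1.07, SD, n = 3 each, exact permutation p = 0.3, two-sided). *TEF1* and *TEF2* alone made up 2.26% to 4.17% of a sample. Without the 5 members of the highest value (*TEF2*, *TEF1*, *STM1*, *EFT1* and *CAM1*) the share was 1.37%, 1.35% and 1.22% in Not4WT and 1.21%, 1.07% and 1.01% in Not4RRM, which no longer overlapped (exact permutation p = 0.1, two-sided). The gap was narrow, with 1.215% in Not4WT replicate 3 and 1.2065% in Not4RRM replicate 1. These shares are of deposited values, without the factors for composition, which were 1.01 and 0.972 for these samples. In a bulk library a lower share cannot tell less RNA in every cell from fewer cells that hold the RNA.

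**Figure D4:**
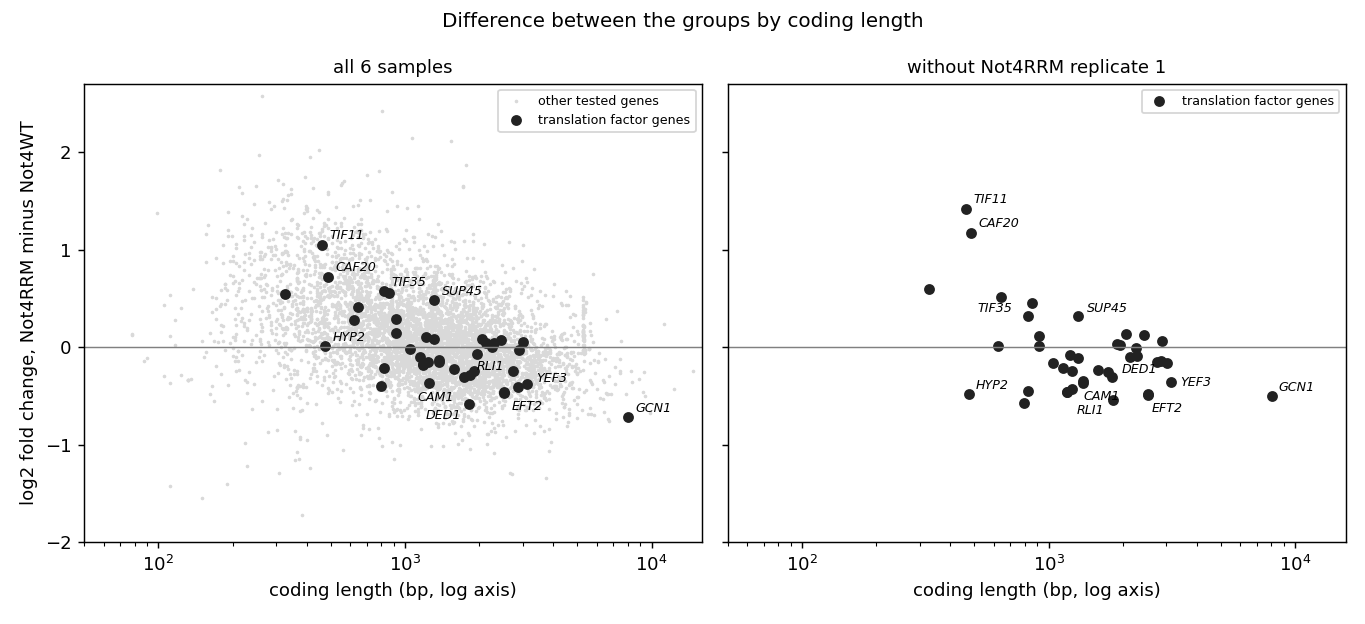
Log2 fold change (Not4RRM minus Not4WT) against coding length (log axis) for the 42 genes (black), in the fit of all 6 samples (left) and without Not4RRM replicate 1 (right). All other tested genes are shown in grey in the left panel only. In the left panel short genes such as *TIF11* and *CAF20* lie above 0 and *GCN1*, the longest, lies lowest, and *HYP2* changes most between the panels.

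Most of the shortest members had positive values and most of the longer ones negative values, though the medians did not fall steadily with length. Of the 12 members with a coding sequence under 1000 bp, 10 had a positive log2 fold change (median 0.35), whereas 14 of the 17 members from 1000 bp to under 2000 bp and 8 of the 13 of 2000 bp and over had a negative one (medians -0.15 and -0.03). All tested genes had medians of 0.28, -0.02 and -0.13 in the same bins. The Spearman rho of log2 fold change and length was -0.547 over the 42 members and -0.413 over 5801 genes, as a description across genes of the same libraries. It was -0.261 and -0.177 without Not4RRM replicate 1, and -0.214 and -0.0364 after the trend with length was removed from each sample. With the trend with length removed from each sample, 2 members had an unadjusted limma p under 0.05, *GCN1* with a lower value and *SUP45* with a higher one, against 16.6% of all genes, and the median of the members was -0.11. The groups then did not overlap for 5 members with lower and 3 with higher values, against 12.4% and 11.3% of all genes.

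The scaling between samples also set the direction of some members. With totals as deposited and no factor for composition, the median of all tested genes moved by -0.12 on the log2 scale and 32 of 42 members had a negative log2 fold change, with a median of -0.18 against -0.07 for all genes. Among them were 8 with positive values on the scale used here, *HYP2*, *GCD6*, *PRT1*, *FUN12*, *NIP1*, *SUP35*, *TIF3* and *TIF5*, none of them above 0.10. The groups did not overlap for 11 members with lower and 0 with higher values, against 18.7% and 7.89% of all genes. The 11 were the 8 named above with *GCD1*, *GCD2* and *GCN20*.

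Of 30 other genes of translation (paralogs of these factors, the Gcn2 pathway, mRNA-bound partners, ribosome rescue, and the enzymes that make diphthamide on eEF2 and hypusine on eIF5A), 15 had a negative and 15 a positive log2 fold change, and none passed the adjusted threshold. The negative ones numbered 21 with totals as deposited and 20 without Not4RRM replicate 1. An unadjusted limma p under 0.05 was reached by 5, *NEW1*, *GCN2* and *CLU1* with lower and *SBP1* and *DYS1* with higher values, against 15.9% of all tested genes. Those with the greatest changes were *DYS1* (YHR068W), the first enzyme of hypusine synthesis, at 0.65 (SE 0.22), *TMA20* (YER007C-A), a recycling factor, at 0.61 (SE 0.27), and *NEW1* (YPL226W), a relative of eEF3, at -0.57 (SE 0.18, limma adjusted p = 0.213). *GCN2* (YDR283C), the kinase that Gcn1 activates, had 1586, 1356 and 1342 in Not4WT and 911, 1066 and 1021 in Not4RRM. Its groups did not overlap, with a log2 fold change of -0.51 (SE 0.16, limma adjusted p = 0.221) that was -0.45 without Not4RRM replicate 1. *PAB1* (YER165W), the poly(A)-binding protein that joins eIF4G, had 50496, 46590 and 33158 against 31019, 29736 and 27892 (log2 fold change -0.53, SE 0.24). *GCN4* (YEL009C), the transcription factor whose translation this pathway controls, was at -0.04. Both *DYS1* and *SBP1* lie on chromosome VIII, where the median log2 fold change of 275 genes was 0.65, while none of the 42 members lies on that chromosome.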

How the data were processed

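Poly(A)-enriched RNA of 6 yeast cultures was sequenced on an Ion Torrent Proton. The authors trimmed bases with a phred score under 20, mapped the reads with STAR to S288C transcripts (its version is not given in the sources used here; the labels name the R64 build), and took read numbers per transcript, scaled to the sample of lowest coverage. The deposited table holds these scaled counts as whole numbers, and they were used as a score, because sample totals differ by at most 66. Depth before scaling, and so counting error, is unknown. The labels name a poly(A) bead kit with an Ion Total RNA-seq library, and the methods of the study another library kit, so strand use is uncertain. No source says that the cultures were started separately, so p-values measure the spread between these samples.

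The 42 genes were matched by systematic identifier. The members, the list of 30 other translation genes and the tests were chosen with earlier results of these data known. Of 5913 genes, 5907 matched the RefSeq annotation of R64, which gave symbols, coordinates, coding lengths and sequences, and a row with no gene name was left out. Values were divided by trimmed mean (TMM) factors (trims of 30% and 5%), and log2(value + 1) was fitted in limma 3.58.1 (R 4.3.3) with a variance trend and Benjamini-Hochberg adjustment over the 5805 genes with at least 10 in at least 3 samples, a fit first tested on simulated data. A fold change is on this log2(value + 1) scale. The limma p-values are two-sided. Groups were taken from the sample titles. Given in full were the 4 most positive and 4 most negative members, those with an unadjusted p under 0.05, the identical-protein pairs and at least 1 member of each of 10 classes, and further members were named after their values were seen. Alternatives were median-of-ratios or no scaling factors, pseudocounts of 0.5 and 10, no filter, a constant prior variance, the replicate number as a block, subtraction of a loess curve on coding length (span 0.5), each sample left out, and the study's unequal-variance test. For the pair sums, all but the unscaled totals and the left-out samples were added after the data were seen.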

Additional observations from a re-analysis of the deposited data

How the results depend on the processing

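No member passed the adjusted threshold in any alternative limma fit. The p-values of the unequal-variance test were not adjusted. The count of members with an unadjusted p under 0.05 was 1, and it was 4 with totals as deposited (against 17.4% of all genes), 4 with a constant prior variance (15.9%), 3 with the replicate block (15.5%), 2 with the length trend removed (16.6%), 4 with the length trend removed and the replicate block (16.5%), and 6 with the unequal-variance test of the study's methods (12.2%). With 1 sample left out it was 1 to 9, the count of 9 being without Not4RRM replicate 1 (29.2%), and it was 6 without Not4WT replicate 3 (18.9%), 4 without Not4RRM replicate 2 (11.1%) and 2 without Not4RRM replicate 3 (9.94%). Over all genes the calls numbered 0, and 5 with the length trend removed, 355 by the study's first steps (without its Benjamini-Hochberg step) and 0 to 357 with 1 sample left out. Beside the 0, limma gave 923 genes at an unadjusted p under 0.05. Members whose groups did not overlap numbered 9 (24.5% of all genes) and 10 to 23 with 1 sample left out. There were 18 without Not4WT replicate 3 (39.1%) and 23 without Not4RRM replicate 1 (52.5%). Those with lower values numbered 8 (12.2% of all genes), and 5 with the length trend removed, with or without the replicate block (12.4%). They numbered 8 to 17 with 1 sample left out, against 14.2% to 25.2% of all genes, with 17 without Not4RRM replicate 1 (25.2%). With 1 sample left out, the median of the members was -0.16 to -0.01, the difference in their share of all values -1.66 to -0.55 percentage points, and the sums of *EFT1* with *EFT2* -0.55 to -0.41, of *TEF1* with *TEF2* -0.36 to -0.01 and of *TIF1* with *TIF2* -0.46 to -0.02 on the log2 scale. With totals as deposited the median was -0.18 and these sums -0.59, -0.27 and -0.31. The log2 fold change of *TEF1*, -0.13, was -0.35 to 0.00056 with 1 sample left out, its highest without Not4WT replicate 2, and that of *TIF2*, -0.17, was -0.46 to 0.0041, its highest without Not4RRM replicate 3. Of the 42 members, 27 kept their direction in all fits that left out 1 sample, and the cause of these changes was not tested. How many of all tested genes kept theirs was not counted. For samples with the same replicate number, the deviations from their group means had an r of 0.07, -0.15 and 0.38. These values do not settle whether the numbers pair the samples, and the block stands only as an alternative. No difference of a member could thus be told from the spread at the adjusted threshold in any limma fit. What part the number of samples and Not4RRM replicate 1 had in this was not tested.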
